A study of Arabidopsis thaliana with 12 samples.

Results

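This report describes 10 genes of the xyloglucan endotransglucosylase/hydrolase (XTH) family in Arabidopsis thaliana seedlings held at low water potential. They are XTH4 (AT2G06850), XTH9 (AT4G03210), XTH15 (AT4G14130), XTH17 (AT1G65310), XTH18 (AT4G30280), XTH19 (AT4G30290), XTH20 (AT5G48070), XTH22 (AT5G57560), XTH23 (AT4G25810) and XTH24 (AT4G30270). They were chosen by gene identifier, with earlier results of these data known. They are 10 of the 33 genes of the family and 10 of 33602 genes in the files, and all 10 passed the filter on low counts. RNA was sequenced from whole seedlings of the Col-0 wild type (WT) and of ahl10-1, a T-DNA insertion line (Salk_073165) named for AHL10, which encodes an AT-hook DNA-binding protein. All seedlings grew on vertical plates of half-strength Murashige-Skoog agar without sugar under continuous light. Control agar had a water potential of -0.25 MPa. For the stress groups, transfer on day 7 was to plates carrying polyethylene glycol, at -0.7 MPa. All were collected 96 h later, with 3 libraries from independent experiments in each of the 4 groups. The labels give 2 accounts of the control seedlings: the sample text has them growing on, and the design text has them moved to fresh plates. The mutant is 1 insertion line, and no complemented line is among the groups.

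XTH enzymes act outside the cell on xyloglucan, the hemicellulose that coats and tethers cellulose microfibrils in the primary wall. They cut a xyloglucan chain and join the new end to another chain (endotransglucosylation) or to water (hydrolysis), and so take part in wall loosening, wall building and growth. The genes differ in where and when they are used: XTH22, also called TCH4, is a classic touch-induced gene, XTH15 and XTH17 are known from shade-induced elongation, and XTH19 and XTH20 from the healing of cut stems.

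The reading frames of the 10 genes share the catalytic site of the family, shown here to let the members be told apart at the stretch that defines them. Each line gives 30 bases (10 codons) of the coding strand of the RefSeq coding sequence (TAIR10.1), and capitals mark the codons of both catalytic glutamates.
XTH4: catgacGAGatagactttGAGttccttgga
XTH9: cacaacGAAttcgattttGAGttcttaggg
XTH15: catgacGAGatagactttGAGtttctaggt
XTH17: tgggatGAGatcgatttcGAGttcttggga
XTH18: tgggatGAGattgatttcGAGttcttagga
XTH19: tgggatGAGattgatttcGAGtttttgggg
XTH20: tgggatGAAatagattttGAGttcttggga
XTH22: tgggacGAGatagatttcGAGtttttaggg
XTH23: tgggacGAGattgactttGAGttcttggga
XTH24: tgggatGAGattgattttGAGttcttgggt
The first glutamate codon was GAG in 8 of 10 members and the second in 10 of 10, while between 2 and 11 of the 30 bases differed between members. XTH18 and XTH19 differed at 3 bases of the stretch, XTH18 and XTH20 at 4, and XTH17 and XTH18 at 2. Over whole coding sequences, identity across the 45 pairs of members ran from 54.4% to 87.6% with a median of 62.6%. It was highest for XTH18 with XTH19, whose longest identical run was 68 bases, followed by XTH18 with XTH20 and XTH17 with XTH18 (both 85.6%), and was 79.2% for XTH22 with XTH23. The files list 0% multi-mapped reads for each of the 10 genes in every library. By the RefSeq annotation, XTH15 overlaps AT4G14120, and the other 9 overlap no gene.

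Libraries held between 57996104 and 68555138 reads in genes. Levels below are RPKM (reads divided by gene length in kb and by library size), scaled by trimmed mean of M-values factors (TMM-scaled RPKM), a scale on which genes of different length can be compared. AHL10 had a level of 23.7 to 24.1 in WT control, 32.5 to 33.7 in WT stress, 10.96 to 13.2 in ahl10-1 control and 14.4 to 16.997 in ahl10-1 stress. It was lower in ahl10-1 than in WT in control (log2 fold change -1.01, SE 0.08, adjusted p 0.000229) and under stress (-1.09, SE 0.08, adjusted p 0.000128, edgeR), at 49.8% and 46.9% of the WT level. Root markers (13 genes) and shoot markers (10 genes) were all present in every library, so roots and shoots were both represented, as the label whole seedling says. Fewer cells of a type and less RNA per cell cannot be told apart in such samples.

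At low water potential 5 of these 10 XTH genes were lower in both genotypes, and XTH19 was higher in both. The share of all genes called in both genotypes was not computed, so these joint counts stand without a background. In WT, 6 of the 10 were lower under stress (XTH4, XTH9, XTH15, XTH17, XTH22 and XTH24), 1 was higher (XTH19) and 3 (XTH18, XTH20 and XTH23) did not pass the test. The test was edgeR's quasi-likelihood test, with Benjamini-Hochberg adjusted p under 0.05 over all 22604 genes tested, of which 24.2% were called in WT, 12.5% lower and 11.7% higher. In ahl10-1, 5 members were lower (the same genes without XTH22) and XTH19 was higher, against a background of 27.8% called, 13.5% lower and 14.2% higher. Without WT control replicate 1 or without WT stress replicate 1, 5 members were called in WT, 5 lower and 0 higher. The median log2 fold change of the 10 members was -1.01 in WT and -0.75 in ahl10-1, while the median over all genes tested was -0.0016 and -0.00084. The libraries of stress and control did not overlap for 7 members in WT, 6 of them lower, where 43.3% of all genes did not overlap and 21.6% were lower without overlap. In ahl10-1 they did not overlap for 8 members, 7 of them lower, where the shares of all genes were 40.2% and 19.1%.

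Together the 10 members had a summed level of 690 to 909 TMM-scaled RPKM in WT control and 360 to 376 in WT stress. In ahl10-1 the sum was 669 to 833 in control and 343 to 398 under stress. The control and stress ranges were apart in both genotypes, and the ranges of the genotypes overlapped within each treatment. XTH4, XTH9 and XTH24 made up most of the sum in each group.

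**Figure D1:**
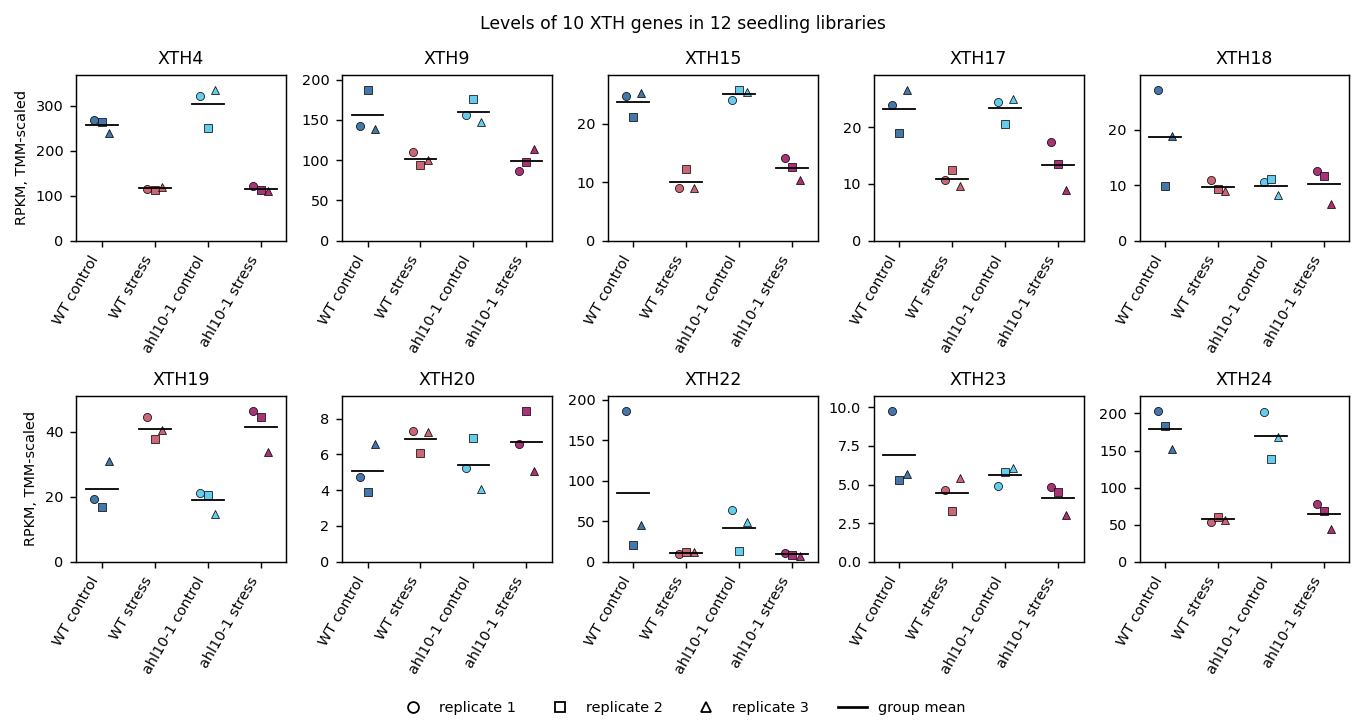
Level of each of the 10 XTH genes (TMM-scaled RPKM, linear axis from 0, own scale per gene) in the 12 libraries, by group; symbols mark the replicate number and lines the mean of 3 libraries. Stress libraries lie below all control libraries of their genotype for XTH4, XTH9, XTH15, XTH17, XTH22 and XTH24, and above them for XTH19.

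The most abundant members were XTH4, XTH24 and XTH9. XTH4, known from expanding and vascular tissue, had TMM-scaled RPKM levels of 267, 263 and 239.9 in WT control and 115, 113 and 119.9 in WT stress. In ahl10-1 its levels were 322, 251 and 336 in control and 121, 113 and 110.0 under stress. Every stress library was below every control library. The log2 fold change was -1.15 in WT (SE 0.10, adjusted p 1.58e-05, edgeR), to 45.2% of control, and -1.40 in ahl10-1 (SE 0.10, adjusted p 3.81e-06, edgeR), to 37.8%. The stress libraries were close together, with a standard deviation (SD) of 3.50 around 116 in WT and of 5.41 around 114 in ahl10-1.

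XTH24, first described as the meristem gene MERI5, stood at 204, 183 and 152 in WT control and at 54.1, 61.0 and 56.2 in WT stress. In ahl10-1 it stood at 201, 139 and 169 in control and at 78.3, 68.8 and 44.7 under stress. Control and stress were well apart in both genotypes, and the ahl10-1 stress libraries ranged around those of WT stress on both sides. Its log2 fold change was -1.65 in WT (SE 0.20, adjusted p 0.000167, edgeR) and -1.41 in ahl10-1 (SE 0.20, adjusted p 0.000403, edgeR). Levels under stress were thus 31.8% and 37.7% of control.

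XTH9, expressed in shoot tips and stems, changed least among the called members. It was at 142, 188 and 139 in WT control and at 110.4, 93.7 and 100.3 in WT stress. In ahl10-1 it was at 156, 175 and 147 in control and at 86.7, 97.5 and 113 under stress. The groups did not overlap, although WT control replicate 2 stood above the other 2 control libraries. The log2 fold change was -0.62 in WT (SE 0.13, adjusted p 0.00522, edgeR) and -0.69 in ahl10-1 (SE 0.13, adjusted p 0.00248, edgeR), which left 65.0% and 62.2% of the control level.

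XTH15 and XTH17 were less abundant than these 3 genes. XTH15 had levels of 24.7, 21.1 and 25.3 in WT control and 9.07, 12.2 and 9.04 in WT stress. In ahl10-1 its levels were 24.0, 25.9 and 25.4 in control and 14.2, 12.7 and 10.3 under stress. The control libraries of both genotypes lay within a narrow band, above all stress libraries. Its log2 fold change was -1.23 in WT (SE 0.14, adjusted p 8.40e-05, edgeR) and -1.02 in ahl10-1 (SE 0.14, adjusted p 0.000242, edgeR). Whether counting used strand is not given in the sources used here, so some of its reads could belong to the overlapping gene.

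XTH17 had levels of 23.8, 18.9 and 26.6 in WT control and 10.6, 12.5 and 9.55 in WT stress. In ahl10-1 it had 24.3, 20.5 and 24.9 in control and 17.4, 13.4 and 8.94 under stress. The ahl10-1 stress libraries were the most spread, with a highest-to-lowest ratio of 1.95 against 1.31 in WT stress, and still lay below the controls. Its log2 fold change was -1.08 in WT (SE 0.21, adjusted p 0.00377, edgeR) and -0.81 in ahl10-1 (SE 0.21, adjusted p 0.0147, edgeR).

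XTH19 went the other way from XTH17, its close relative. It rose from 19.2, 16.9 and 30.9 in WT control to 44.4, 37.7 and 40.6 in WT stress. In ahl10-1 it rose from 21.3, 20.5 and 14.8 to 46.5, 44.6 and 33.7. Stress libraries were above all controls of the same genotype. This was a log2 fold change of 0.87 in WT (SE 0.22, adjusted p 0.0148, edgeR) and 1.14 in ahl10-1 (SE 0.22, adjusted p 0.00327, edgeR). The WT call was lost without WT control replicate 1 (0.78, adjusted p 0.0503) or WT stress replicate 1 (0.81, adjusted p 0.0542), within a range of adjusted p from 0.000332 to 0.0542 over 20 alternatives. The ahl10-1 call held under all 21 alternatives run. As a share of the summed level of all 33 XTH genes, XTH19 was at 1.70% in WT control and 5.40% in WT stress, and at 1.35% and 5.28% in ahl10-1.

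XTH18 and XTH20 complete this group of relatives, and neither was called. XTH18 had levels of 27.2, 9.84 and 18.8 in WT control, 10.9, 9.32 and 8.87 in WT stress, 10.48, 11.01 and 8.25 in ahl10-1 control, and 12.5, 11.6 and 6.53 in ahl10-1 stress. WT control replicates 1 and 3 were the only libraries above 12.5, and WT control replicate 2 lay among the stress libraries. The log2 fold change was -0.94 in WT (SE 0.33, adjusted p 0.0638, edgeR) and 0.04 in ahl10-1 (SE 0.33, adjusted p 0.941, edgeR). Without WT control replicate 1 the WT value was -0.55 (adjusted p 0.235), without WT control replicate 2 it was -1.24 with adjusted p 0.00700, and without ahl10-1 stress replicate 3 its adjusted p was 0.0489, within a range from 0.00700 to 0.235 over 20 alternatives. XTH20 was low throughout, at 4.74, 3.92 and 6.57 in WT control, 7.31, 6.09 and 7.26 in WT stress, 5.25, 6.93 and 4.08 in ahl10-1 control and 6.56, 8.45 and 5.05 in ahl10-1 stress. The groups overlapped, with log2 fold changes of 0.44 in WT (SE 0.24, adjusted p 0.207, edgeR) and 0.30 in ahl10-1 (SE 0.24, adjusted p 0.379, edgeR). Of XTH17 to XTH20, 1 was thus lower, 1 higher and 2 not called in each genotype.

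Some members lie next to other XTH genes. On chromosome 4, XTH24, XTH18 and XTH19 follow each other with no annotated gene between them (5161 and 1500 bases apart in the RefSeq annotation). In this trio the level of XTH24 relative to XTH19 was 4.91 to 10.8 in WT control and 1.22 to 1.62 in WT stress. In ahl10-1 the same ratio was 6.77 to 11.4 in control and 1.32 to 1.68 under stress. The ratio of XTH19 to XTH18 was 0.708 to 1.72 in WT control, 4.04 to 4.58 in WT stress, 1.796 to 2.03 in ahl10-1 control and 3.72 to 5.17 in ahl10-1 stress. Control and stress were apart for both ratios in both genotypes. XTH14, a root-expressed relative, lies 363 bases from XTH23, and the ratio of XTH14 to XTH23 went from 0.335 to 2.13 in WT control to 2.83 to 5.31 in WT stress, and from 0.762 to 0.861 in ahl10-1 control to 3.49 to 5.28 in ahl10-1 stress. XTH22 ends a run of XTH12, XTH13, XTH25 and XTH22 on chromosome 5. XTH25 was low, at 0.197 to 0.475 in WT control and 0.0593 to 0.188 in WT stress, and was not called in WT (log2 fold change -1.23, SE 0.60, adjusted p 0.158, edgeR). These ratios were chosen after their values were seen and are given as a description.

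**Figure D2:**
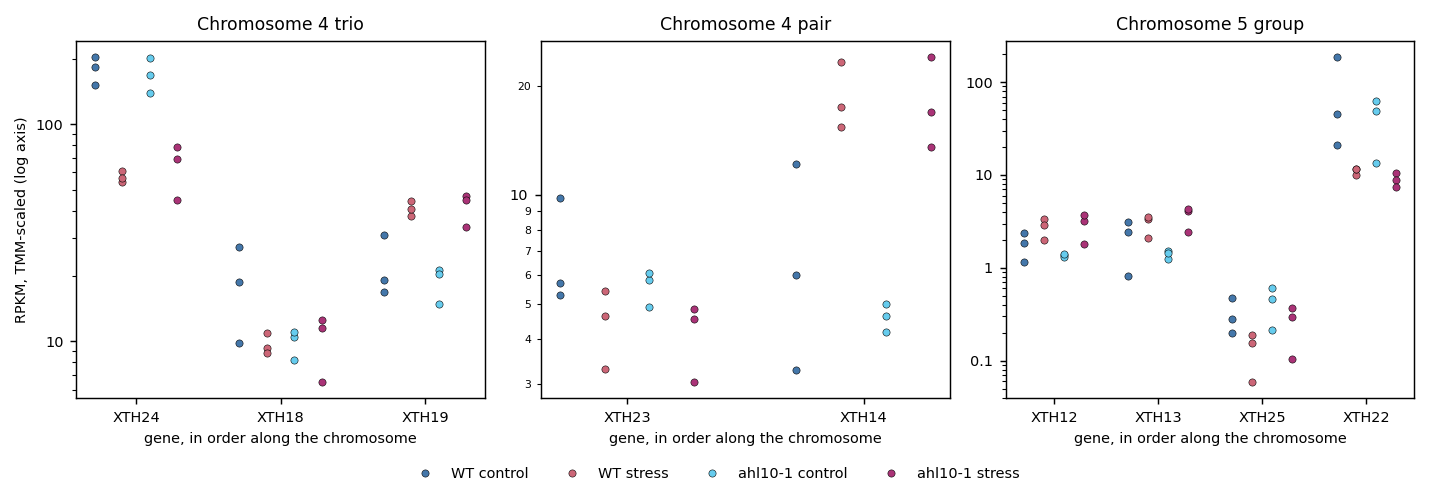
Level of neighbouring XTH genes (TMM-scaled RPKM, log axis) in each of the 12 libraries, 3 points per group, genes in order along the chromosome. In the trio, XTH24 was lower and XTH19 higher under stress; in the pair, XTH14 was higher; in the last panel XTH22 was the most abundant gene in each group.

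XTH22 had the largest log2 fold change among the 10 members and the largest spread among control seedlings. Its levels were 187, 20.9 and 45.5 in WT control and 9.89, 11.6 and 11.6 in WT stress. In ahl10-1 they were 63.4, 13.5 and 49.4 in control and 10.48, 8.90 and 7.45 under stress. The highest WT control library was 8.92 times the lowest, whereas within WT stress that ratio was 1.18. All controls were still above all stress libraries of their genotype. The log2 fold change was -2.93 in WT (SE 0.79, adjusted p 0.0249, edgeR) and -2.23 in ahl10-1 (SE 0.78, adjusted p 0.0603, edgeR), to 13.1% and 21.3% of control.

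The calls of XTH22 changed with single libraries and settings. In WT the log2 fold change was -1.58 without WT control replicate 1 (adjusted p 0.0729), and the call was also lost without WT stress replicate 1 (0.0795), 2 (0.0721) or 3 (0.0656) and when the WT libraries were fitted alone (0.0895), within a range of adjusted p from 0.000511 to 0.0895 over 20 alternatives. In ahl10-1 it was called without ahl10-1 control replicate 2 (-2.66, adjusted p 0.0328), without WT control replicate 1 (0.00994) or 2 (0.0302), with the ahl10-1 libraries alone (0.0185), with DESeq2 (0.00993) and without multi-mapped reads (0.0499), within a range from 0.00993 to 0.176 over 21 alternatives. The responses of XTH22 in the genotypes were not shown to differ (interaction 0.70, SE 1.06, adjusted p 1.00, edgeR).

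Other touch- and wound-induced genes moved with XTH22 in the same libraries. They were listed with earlier results of these data known, so their values are a description and no independent support. The summed level of 11 such genes (among them calmodulin-like CML12, CML24 and CML38 and the transcription factors ZAT10, ERF6 and WRKY40) was 1299.8 in WT control replicate 1, 215 in replicate 2 and 424 in replicate 3, and 120.3 to 125 in WT stress. In ahl10-1 it was 374, 163 and 357 in control and 91.5 to 109.7 under stress. Of the 11 genes, 10 were lower under stress in WT, with a median log2 fold change of -2.34, and 3 in ahl10-1 (CML24, CML12 and ZAT10), with a median of -1.43. Over all genes tested, 12.5% were lower in WT and 13.5% in ahl10-1. With the replicate number as a block in the ahl10-1 libraries alone, 4 genes were lower and CML12 was not among them (adjusted p 0.0830). Leaving out 1 library gave 2 to 11 genes lower in WT, with 6 without WT control replicate 1 and 2 or 3 without any 1 of the WT stress libraries, and 0 to 7 in ahl10-1, with 7 without WT control replicate 1 and 0 without ahl10-1 control replicate 3 or stress replicate 2 or 3. Fitted to the libraries of 1 genotype alone, 1 gene was called in WT and 8 in ahl10-1. With limma on log2(RPKM + 1) 6 were called in WT, and DESeq2 called 5 in ahl10-1. The number of all genes called moved too. In WT it was 5478 with all libraries, 3867 without WT control replicate 1 and 3567 without WT stress replicate 1. In ahl10-1 it was 6277 with all libraries, 6258 without WT control replicate 1 and 4606 without ahl10-1 control replicate 3. CML38 fell by 3.78 on the log2 scale and ZAT10 fell by 3.33 in WT (SE 0.92 and 0.72, adjusted p 0.0146 and 0.00880, edgeR). Without WT control replicate 1 the CML38 value was -1.98 (adjusted p 0.0194). The call of CML38 was lost without WT stress replicate 1 (adjusted p 0.0519) or 3 (0.0513) and in the WT libraries alone (0.0888). None of the 11 genes was at 0 in any library. Within the controls of each genotype, the list and XTH22 ranked the libraries alike, with replicate 1 highest and replicate 2 lowest. The part of touch or handling in the XTH22 result was not tested.

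XTH23, a close relative of XTH22, was at 9.78, 5.28 and 5.70 in WT control and at 4.63, 3.30 and 5.41 in WT stress. In ahl10-1 it was at 4.89, 5.80 and 6.07 in control and at 4.84, 4.54 and 3.05 under stress. WT control replicate 1 was again the highest library, and the WT groups overlapped, while those of ahl10-1 were narrowly apart. For XTH23 the log2 fold change was -0.64 in WT (SE 0.26, adjusted p 0.0945, edgeR) and -0.43 in ahl10-1 (SE 0.26, adjusted p 0.246, edgeR), and it was not called under any of the alternatives run. Without WT control replicate 1 the WT value was -0.30 (adjusted p 0.403).

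**Figure D3:**
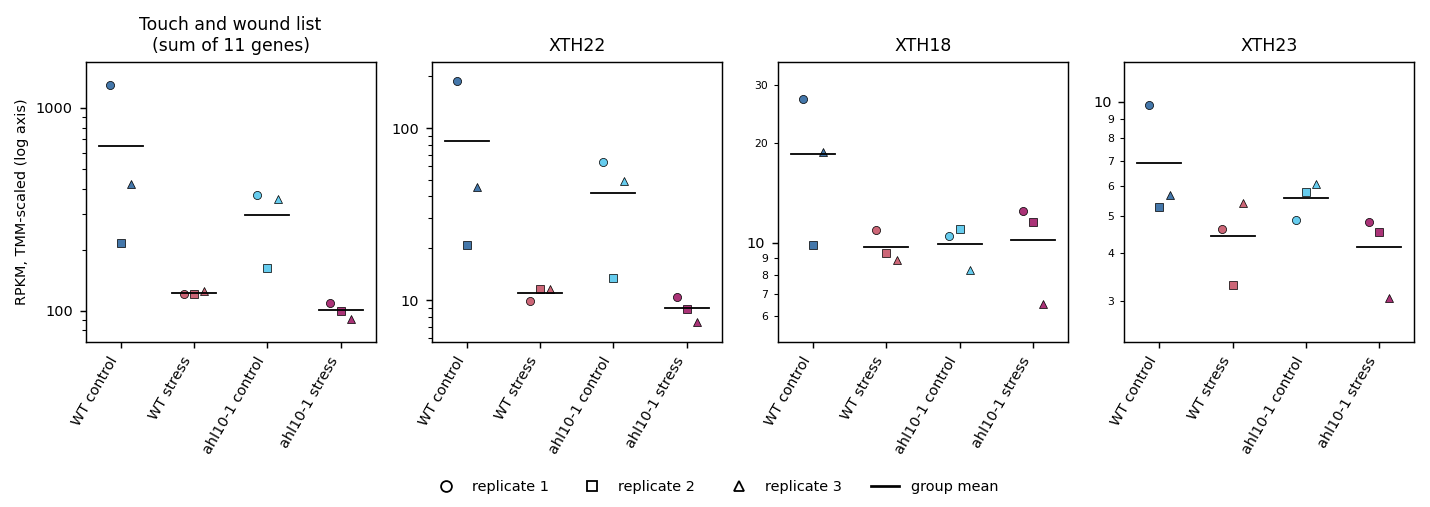
Summed level of the 11 touch and wound genes and levels of XTH22, XTH18 and XTH23 (TMM-scaled RPKM, log axes with their own range) by group; symbols mark the replicate number and lines the mean of 3 libraries. WT control replicate 1 was the highest library in all 4 panels, and WT control replicate 2 the lowest of the WT controls.

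Between ahl10-1 and WT no member was called in either treatment. In control, log2 fold changes ran from -1.003 (XTH22) to 0.24 (XTH4), with a median of -0.04 beside -0.0047 over all genes, where edgeR called 0.0177% of all genes. Under stress they ran from -0.30 to 0.29 (XTH15), with a median of 0.0025 beside 0.0052, where 0.0265% of all genes were called. DESeq2 also called 0 of the 10 in both comparisons. At an unadjusted p under 0.05 there were 2 members in control (5.34% of all genes) and 0 under stress (3.75%).

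These 2 members were XTH4 and XTH18. XTH4 was higher in ahl10-1 control by 0.24 on the log2 scale (SE 0.10, unadjusted p 0.0355, adjusted p 0.854, edgeR), with overlapping libraries. XTH18 had a value of -0.91 (SE 0.33, unadjusted p 0.0201, adjusted p 0.854, edgeR), which was -0.52 without WT control replicate 1 and -1.21 without WT control replicate 2. XTH22 had the widest 95% interval in control, from -2.66 to 0.66, and its value of -1.003 (SE 0.74) changed sign to 0.34 without WT control replicate 1. The 11 touch and wound genes were all lower in ahl10-1 control (median log2 fold change -1.44), with 0 called by edgeR. All 11 were also lower in ahl10-1 under stress (median -0.31) and averaged over treatments (median -0.84), again with 0 called. In control 4 of the 11 had an unadjusted p under 0.05 (edgeR), beside 5.34% of all genes, and under stress 0, beside 3.75%. Their interaction values (response in ahl10-1 minus response in WT) were all positive, with a median of 1.09 and 0 called. The summed level of this list was also highest in WT control replicate 1. Under stress the sum was 120.3 to 125 in WT and 91.5 to 109.7 in ahl10-1, which did not overlap. Under stress XTH15 had 0.29 (SE 0.14, unadjusted p 0.0529, adjusted p 0.999, edgeR). No pair of genotypes within a treatment was apart for any of the 10 members. Over all genes 7.67% were apart in control and 11.9% under stress, so for 10 genes this count was near the background.

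The response to stress was not shown to differ between the genotypes for any member. The interaction (response in ahl10-1 minus response in WT) ran from -0.26 for XTH4 (SE 0.14, unadjusted p 0.0955) to 0.98 for XTH18 (SE 0.47, unadjusted p 0.0620), with adjusted p of 1.00 for all 10 (edgeR). None of the 10 had an unadjusted p under 0.05, beside 1.42% of all genes, and 0% of all genes was called. The 95% interval of the XTH18 interaction was -0.06 to 2.02, and its value was 0.60 without WT control replicate 1. Averaged over treatments, the genotype difference ran from -0.65 to 0.19, with 0 of 10 called by edgeR or DESeq2 beside 0.0708% of all genes, and 0 at an unadjusted p under 0.05 beside 8.89%.

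Ordered by group mean, the 7 members called in WT had both control groups apart from both stress groups, and within each treatment the neighbouring genotypes overlapped. For XTH4, XTH9, XTH15 and XTH17 the highest mean was ahl10-1 control, and for XTH22 and XTH24 it was WT control. For XTH19 it was ahl10-1 stress, at 41.6 ± 6.88 (SD over 3 libraries) beside 40.9 ± 3.39 in WT stress. All neighbours in the order overlapped for XTH18, XTH20 and XTH23.

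The remaining 23 XTH genes gave a mixed picture. Of these, 20 were tested; XTH1 and XTH3 had 0 reads in all 12 libraries, and XTH2 had at most 2 in a library. In WT 6 were lower and 1 higher under stress, and in ahl10-1 7 were lower and 3 higher, with median log2 fold changes of -0.04 and 0.01. Across the 30 tested family genes, 12 were lower and 2 higher in WT, and 12 lower and 4 higher in ahl10-1. Over all genes 12.5% were lower and 11.7% higher in WT, and 13.5% and 14.2% in ahl10-1. Of the 23, 6 were lower in both genotypes and 1 was higher in both, again without a joint share over all genes.

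Among those lower in both, XTH6 fell by 1.72 in WT and by 2.06 in ahl10-1 on the log2 scale (SE 0.23 in each, adjusted p 0.000386 and 0.000107, edgeR). XTH27 fell by 0.88 and by 1.23 (SE 0.11 in each, adjusted p 0.000211 and 1.81e-05, edgeR). XTH16 fell by 0.77 and by 0.95, and XTH8 by 0.73 and by 0.69. The gene higher in both was XTH14, at 3.28 to 12.1 in WT control and 15.3 to 23.2 in WT stress, and at 4.20 to 4.996 and 13.6 to 24.0 in ahl10-1. Its log2 fold change was 1.39 in WT (SE 0.40, adjusted p 0.0287, edgeR) and 1.98 in ahl10-1 (SE 0.41, adjusted p 0.00532, edgeR). Its WT call was lost without WT control replicate 2 (1.28, adjusted p 0.0942), WT stress replicate 1 (1.20, 0.0944) or WT stress replicate 2 (1.43, 0.0565), and with the WT libraries alone (0.120), within a range from 0.00155 to 0.120.

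Called in ahl10-1 alone were XTH12 (1.09, SE 0.31, adjusted p 0.0200), XTH13 (1.37, SE 0.41, adjusted p 0.0258) and XTH28 (-0.33, SE 0.07, adjusted p 0.00492, edgeR). Both rises depended on single libraries: XTH12 was no longer called without ahl10-1 control replicate 2 or 3 or stress replicate 1 or 2 (adjusted p up to 0.0849), nor XTH13 without any ahl10-1 control library or stress replicate 1 or 2 (up to 0.0838). XTH12, XTH13, XTH14 and XTH28 were named after their values were seen, and the differences between genotypes were not called for any of the 30 genes (interaction, 0 of 30). Root hair genes EXPA7 and EXPA18, which encode expansins, were also higher, with 1.52 and 1.31 in WT and 1.82 and 1.84 in ahl10-1 (adjusted p 0.0196, 0.0213, 0.00773 and 0.00362, edgeR). The 2 WT calls were lost without WT control replicate 2 (adjusted p 0.0736 and 0.0767) or WT stress replicate 1 (0.0724 and 0.0801), within ranges up to 0.109 over the alternatives. Of the 13 root markers, 3 were higher and 0 lower in WT, and 4 higher and 2 lower in ahl10-1. Over all genes 24.2% and 27.8% were called, so the WT count over both directions was near the background. By direction, 11.7% of all genes were higher and 12.5% lower in WT, and 14.2% higher and 13.5% lower in ahl10-1. In WT 0 were higher without WT control replicate 2, without WT stress replicate 1 or in the WT libraries alone, and 6 without WT control replicate 3. In ahl10-1 leaving out 1 library gave 3 to 6 higher and 0 to 2 lower. Without overlap of the libraries, 3 root markers were higher and 2 lower in WT, and 6 higher and 2 lower in ahl10-1. Over all genes, 43.3% did not overlap in WT (21.6% lower) and 40.2% in ahl10-1 (19.1% lower). The summed level of the root markers was 1962 to 2383 in WT control and 1787 to 1853 in WT stress, which did not overlap. It was 1912 to 1984 in ahl10-1 control and 1669.6 to 2296 in ahl10-1 stress, which did overlap. Of the 10 shoot markers, 1 was higher in WT and 0 were called in ahl10-1 (1 at an unadjusted p under 0.05, edgeR). In WT 7 of the 10 had a negative log2 fold change. Without overlap of the libraries, 4 shoot markers were lower and 1 higher in WT, and 0 lower and 1 higher in ahl10-1. The summed level of the shoot markers was 20789 to 25091 in WT control and 18967 to 19833 in WT stress, which did not overlap, and 20531 to 29707 in ahl10-1 control and 18853 to 25356 in ahl10-1 stress, which did. The part of root and shoot tissue in the XTH results was not tested.

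**Figure D4:**
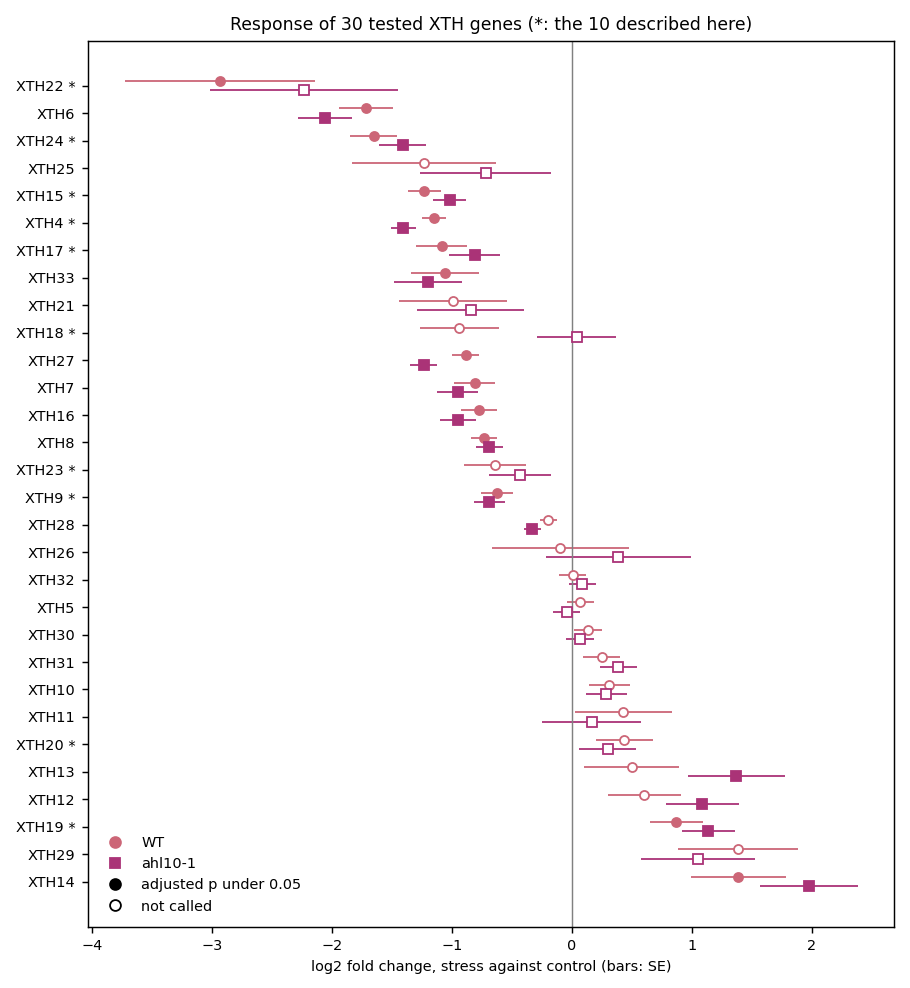
Log2 fold change of stress against control for the 30 tested XTH genes in WT (circles) and ahl10-1 (squares), with bars of 1 SE; filled symbols passed edgeR's test at adjusted p under 0.05, and asterisks mark the 10 members. Values ran from -2.93 for XTH22 to 1.98 for XTH14, and XTH19 was the member with the highest value in both genotypes.

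Genes that make xyloglucan were called by edgeR in both directions under stress, while genes that trim it were called lower only. Of 14 synthesis genes, 1 was higher and 4 were lower in WT, and 2 higher and 3 lower in ahl10-1, beside 24.2% and 27.8% of all genes called, with median log2 fold changes of -0.05 and -0.11. XXT1, a xylosyltransferase that adds side chains, fell by 1.12 in WT (SE 0.22, adjusted p 0.00411, edgeR; -0.71 without WT control replicate 1) and by 0.69 in ahl10-1 (SE 0.22, adjusted p 0.0388, edgeR), the latter lost when any ahl10-1 or WT stress library was left out (adjusted p from 0.000122 to 0.109 over 21 alternatives). FUT1, the xyloglucan fucosyltransferase, rose by 0.46 in WT (SE 0.09, adjusted p 0.00304, edgeR) and by 0.36 in ahl10-1 (SE 0.09, adjusted p 0.0103, edgeR). CSLC12, a glucan synthase of the backbone, rose by 0.67 in ahl10-1 (SE 0.16, adjusted p 0.0101, edgeR). The summed level of the 14 was 227 to 255 in WT control, 215 to 219 in WT stress, 236 to 239.6 in ahl10-1 control and 214 to 231 in ahl10-1 stress. Of 3 apoplastic trimming enzymes, 1 was lower in WT and 2 in ahl10-1; BGAL10, a beta-galactosidase, fell by 0.33 in WT (SE 0.08, adjusted p 0.0111, edgeR). Between the genotypes 0 genes of either list were called by edgeR. An unadjusted p under 0.05 was reached by 1 synthesis gene in control (5.34% of all genes) and by 0 genes under stress (3.75%). Under stress 3 of the 14 synthesis genes were higher in ahl10-1 without overlap of the libraries and 0 lower, beside 11.9% of all genes without overlap.

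Across the 12 libraries, the genes outside the family with the profile closest to each member were named by Pearson correlation of log2(TMM-scaled CPM + 1), CPM being reads relative to library size without division by gene length. These correlations are a description over libraries that share the split between control and stress. For XTH4 they were CSLA03 (0.992), of the cellulose synthase-like A family of mannan synthases, and TTL3 (0.991). For XTH22 they were ERF6 (0.988), an ethylene response factor of the touch and wound list, and AT5G51190 (0.987). For XTH19 they were ABIL3 (0.993) and AT5G43400 (0.991), and for XTH15 VHA-E3 (0.986), a subunit of the vacuolar proton pump, and AT1G12080 (0.976). For XTH24 they were AT4G33740 (0.987) and AT2G31800 (0.982), for XTH17 AT4G36790 (0.983) and AT1G52750 (0.980), and for XTH9 AT1G49230 (0.980) and AT1G09160 (0.973). The 3 members not called in either genotype had the lowest values: XTH18 with AT5G63130 (0.959) and AT5G06490 (0.943), XTH20 with AT2G42660 (0.938) and AT1G26900 (0.933), and XTH23 with AT2G41640 (0.923) and ACS7 (0.915), an enzyme of ethylene synthesis.

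In the authors' deposited table of stress against control in WT, 6352 genes were called at adjusted p under 0.05. Of the 10 members, 6 were lower, 1 was higher and 3 were not called there. The authors' log2 fold change of XTH22 was -1.03 (SE 0.34), smaller in size than the -2.93 given above. Over the 20 alternatives run here the value stayed between -3.39 and -1.58. The settings of the authors' test are not given in the sources used here, so these may be unlike measures. Their values for XTH4 and XTH24 were -1.13 and -1.61, close to those given above. In the authors' deposited tables of ahl10-1 against WT, 0 of 10 were called in control (lowest adjusted p 0.9999) and 0 of 10 under stress (lowest adjusted p 0.742). Over all genes, 18 were called in control and 85 under stress.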

How the data were processed

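The authors deposited, per library, estimated counts for every gene beside RPKM, gene length and the fraction of multi-mapped reads (12 tables). Per the file headers the counts are reads; 3.98% to 4.56% of genes were not whole, so counts were rounded. The authors also deposited log2 fold changes with a p-value and adjusted p-value per gene. The submitters' processing notes name CASAVA, bcl2fastq 1.8.4, Bowtie2, DESeq2 and TAIR10; their settings, and whether counting used strand, are not given in the sources used here. Columns were matched to samples by their labels (0 left over).

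After filterByExpr (minimum count 10, minimum total 15) 22604 genes were kept. They were tested with edgeR's quasi-likelihood F test (edgeR 4.0.16, R 4.3.3) with TMM scaling, as 4 group means over all 12 libraries (8 residual degrees of freedom). The Benjamini-Hochberg adjustment ran over all genes tested in each comparison. The biological coefficient of variation was 0.144. The script was tested on simulated counts. Alternatives were DESeq2 1.42.0 (test and size factors), limma 3.58.1 on log2(RPKM + 1) and log2(RPKM + 0.1), no filter, the compared groups alone, counts without multi-mapped reads, a replicate block, and leaving out each library. Deviations of same-numbered libraries from their group means correlated at 0.278, 0.214 and 0.336 between ahl10-1 control and stress, so numbers were taken to pair them there. In WT the values were -0.048, -0.0076 and -0.012. Between the genotypes they were 0.219, 0.322 and -0.245 in control and 0.076, 0.063 and 0.193 under stress. The main tests did not use any pairing, which entered only through the replicate block.

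Named genes were all 10 members, up to 4 called genes per list and comparison with the smallest p, and the 2 genes most correlated with each member. The members and lists were chosen with earlier results of these data known. Sequences came from RefSeq (TAIR10.1), to which all 84 listed genes matched by locus tag; no coordinates are given.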

Additional observations from a re-analysis of the deposited data

How the results depend on the processing

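No count of called members or family genes moved by over 1.5 times under any alternative. Leaving out 1 library at a time gave 5 to 8 members called in WT and 6 to 7 in ahl10-1, 11 to 15 family genes in WT and 14 to 17 in ahl10-1, and 0 for every comparison of the genotypes. With the replicate number as a block, 7 members were called in WT and 6 in ahl10-1, the same numbers as without it, with 14 and 17 family genes, and no member's call with stress changed. Fitted to the ahl10-1 libraries alone, a block added after seeing the data gave 6 members and 17 family genes. DESeq2 called 8 members in WT and 7 in ahl10-1.

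The log2 fold changes of XTH4, XTH9, XTH15, XTH17 and XTH24 with stress kept their direction and call in both genotypes under every alternative run, as did XTH19 in ahl10-1. Direction changed on leaving out 1 library for XTH18 with stress in ahl10-1 (-0.13 to 0.27), for XTH22 between genotypes in control (-1.46 to 0.34) and for the XTH22 interaction (-0.64 to 1.16); the cause was not tested. Of 33 other genotype fold changes of members, 63 of 643 values changed sign, none larger than 0.12, and 0 passed the threshold. With 3 libraries a group, the wide intervals of XTH22 and XTH18 limit what can be said of the genotypes. Counting error is small beside this: the members' lowest count in a library was 191 reads.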
